A study of Arabidopsis thaliana with 18 samples.

Results

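Of 32678 genes counted, 49 (0.15%) had transcripts that were at least 2-fold more abundant in estradiol-treated than in mock-treated leaves 24 h after spraying, while the ratio stayed below a limit at 6 and 12 h. They were chosen from the measured values. Counts per 1e6 gene counts (CPM) were averaged over the 3 libraries of each group, 0.5 CPM was added, and the log2 ratio of estradiol over mock was taken. A member had a ratio of at least 1 at 24 h and below 0.3 at both 6 and 12 h, and its lowest estradiol library at 24 h lay above its highest mock library. The ratios of estradiol over mock at the 3 times therefore describe the choice and are given without a test. A further 372 genes met the same 2 conditions at 24 h but passed the limit at 6 or 12 h, and they serve below as the genes most like the members.

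The treatment induces PAD4, which pairs with EDS1 in the immunity that intracellular TIR receptors and basal defence set off in Arabidopsis. PAD4 and EDS1 are lipase-like proteins whose joint action promotes salicylic acid signalling and a wave of defence transcription. Leaf defence of this kind draws on surface receptor kinases, calcium-dependent and MAP kinases, callose synthesis, directed secretion and export pumps. Many defence transcripts also cycle through the day in untreated plants.

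The leaves came from ED-P4E1, a line of the Col-0 ecotype in which both eds1-2 and pad4-1 mutations are present, PAD4 is driven by an estradiol-inducible promoter, and EDS1 by the constitutive 35S promoter. Plants 4 weeks old, kept at 22 °C with 10 h of light, received 10 µM estradiol or a mock spray with 0.2% DMSO, both with 0.01% silwet as wetting agent, and leaves were taken 6, 12 and 24 h later. Polyadenylated RNA was sequenced from 3 libraries for each of the 6 groups, estradiol and mock at each time. All groups carry both mutations and both transgenes. Estradiol-treated plants without the inducible PAD4 were not analysed here, so effects of estradiol itself and of PAD4 cannot be told apart. The labels name a single line. Whether the replicates are different plants is not stated, and the p-values below reflect only how far these libraries spread, perhaps for technical reasons alone. The hour of spraying is not stated either, so time after spraying and time of day cannot be told apart.

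The libraries held 19.1 to 48.1 M gene counts (M, 1e6), and 19227 genes passed the filter on low counts, all 49 members among them. Levels below are CPM scaled by TMM factors, since without that scaling the median of all genes shifted by 0.41 (log2) in mock leaves and by 0.42 in estradiol leaves between 12 and 6 h, against 0.02 and 0.01 with it. PAD4 stood at 364, 244 and 148 CPM in the estradiol libraries of 24 h, against 17.1, 16.1 and 20.8 CPM in the mock libraries. Counting by locus cannot separate the transgene's reads from those of the mutated chromosomal copy. The 5 leaf mesophyll markers, photosynthesis genes of the RBCS, LHCB and CA1 kind, summed to 42113 to 49076 CPM in estradiol leaves and 45704 to 55485 CPM in mock leaves at 24 h. Seed markers stayed at or below 0.235 CPM in every library, and OLEO1 (seed), VGD1 (pollen), LBD16 and EXPA7 (root) and MYB0 (trichome) were at 0 in all. Other markers of those types were detected. The 6 root markers summed to 20.7 to 32 CPM across the libraries, although 5 of them were below 1 CPM at 24 h. The flower and pollen markers summed to 0.592 to 2.95 CPM and the trichome markers to 0.358 to 1.44 CPM. At 24 h the guard cell markers summed to 47.9 to 53.7 CPM in estradiol leaves and 57.9 to 59.8 CPM in mock leaves, and the phloem markers to 212 to 231 CPM and 232 to 275 CPM. Their part in the members' difference was not tested, and in bulk leaves fewer cells of a type and less RNA per cell cannot be told apart.

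At 24 h the members' fold of estradiol over mock, on the CPM + 0.5 scale, ran from 2 to 18.5 with a median of 2.51. It was at least 4 for 6 members and below 4 for the other 43. The 12 h ratio lay between −0.09 and 0.30 on the log2 scale with a median of 0.18. It was above 0 for 46 members and at least 0.2 for 20, so many stood just under the limit. The 6 h ratio had a median of −0.06, above 0 for 18 members and below 0 for 30. The members spanned a wide range of CPM at 24 h in estradiol leaves: 3 averaged below 1 CPM, 20 lay between 1 and 10, 20 between 10 and 100, and 6 above 100 CPM.

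**Figure D1:**
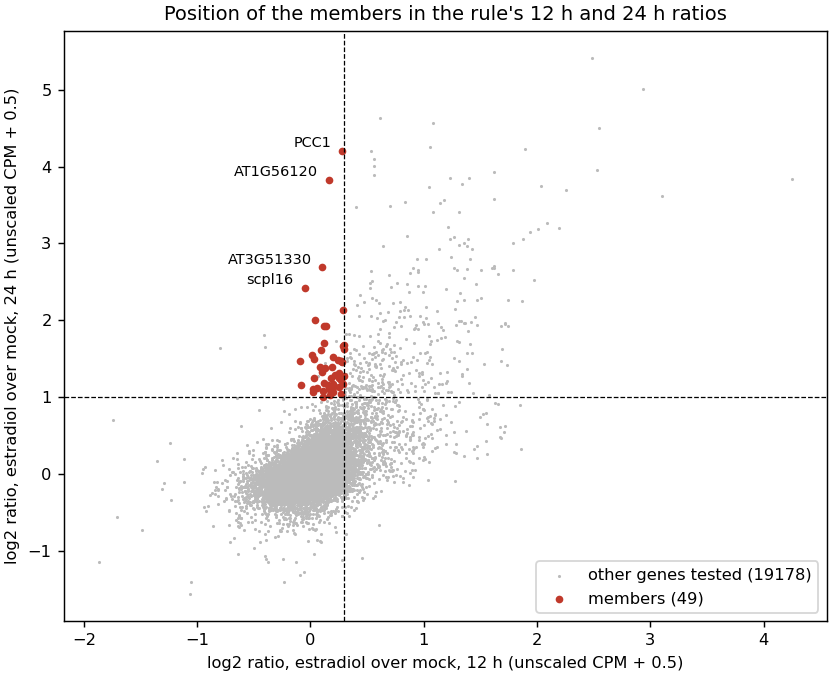
Log2 ratio of estradiol over mock at 12 h (horizontal axis) and 24 h (vertical axis), from unscaled CPM + 0.5, for the 19227 genes tested; dashed lines mark the limits of 0.3 and 1. The 49 members (red) fill the strip left of 0.3 and above 1, with PCC1 at 4.21 and AT1G56120 at 3.83 well above the rest, and no gap separates them from the genes right of the line.

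Genes close to the limits show where the group ends. AT2G44380, PRA1.G2 and AT5G17760 were just inside the 24 h limit, at log2 ratios of 1.00, 1.02 and 1.05. UF3GT, AT5G52720 and AT1G61420 were just outside it, at 0.988, 0.980 and 0.975. At 12 h TRX5 (0.298), AT3G16565 (0.295) and AT3G04210 (0.295) were inside and AT5G35735 (0.302), YSL3 (0.308) and YLS2 (0.314) outside. At 6 h COBL5 (0.28), AT1G66090 (0.27) and TRX5 (0.26) were inside, and AT3G50800 (0.31), PDIL2-2 (0.34) and ERF104 (0.42) outside. The 12 h limit alone kept out 259 genes and the 6 h limit alone 6. The condition on overlap kept out PDF1.2 and PDF1.3, whose lowest estradiol library stood at 0.351 and 0.228 times the highest mock library. The narrowest separations among members were those of DUR3 (1.32 times), AT2G44380 (1.4 times) and AT5G59680 (1.42 times).

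Across the 3 times the members shared much of their shape, which the choice fixed in part, since it held the treatments close at 12 h and apart at 24 h. In mock leaves 41 of 49 (83.7%) had their highest group mean at 12 h, as did 38.0% of all genes tested and 73.4% of the 372 other genes with the same difference at 24 h. In estradiol leaves 32 members (65.3%) were highest at 12 h and 17 (34.7%) at 24 h, against 37.6% and 34.8% of all genes tested. All 32 were highest at 12 h in mock leaves as well. Between 12 and 24 h the level dropped further in mock than in estradiol leaves, which follows from the choice. Over the 41 members with a mock mean above 1 CPM at 12 h, the median 24 h level was 43.4% of the 12 h level in estradiol leaves and 17.9% in mock leaves, where the medians over 16751 genes were 94.6% and 95.2%. Mock leaves at 24 h averaged below mock leaves at 6 h for 28 members, with no overlap of libraries for 21, where 47.8% of all genes tested averaged lower and 33.5% did not overlap. Estradiol leaves at 24 h averaged above those at 6 h for 42 members, with no overlap for 37, where the shares of all genes tested were 50.8% and 34.2%. The 24 h difference thus consists, for most members, of a smaller drop from a shared 12 h level, and for 17 of a level at 24 h above that at 12 h. The 24 h levels were part of the choice, so these counts are descriptions.

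**Figure D2:**
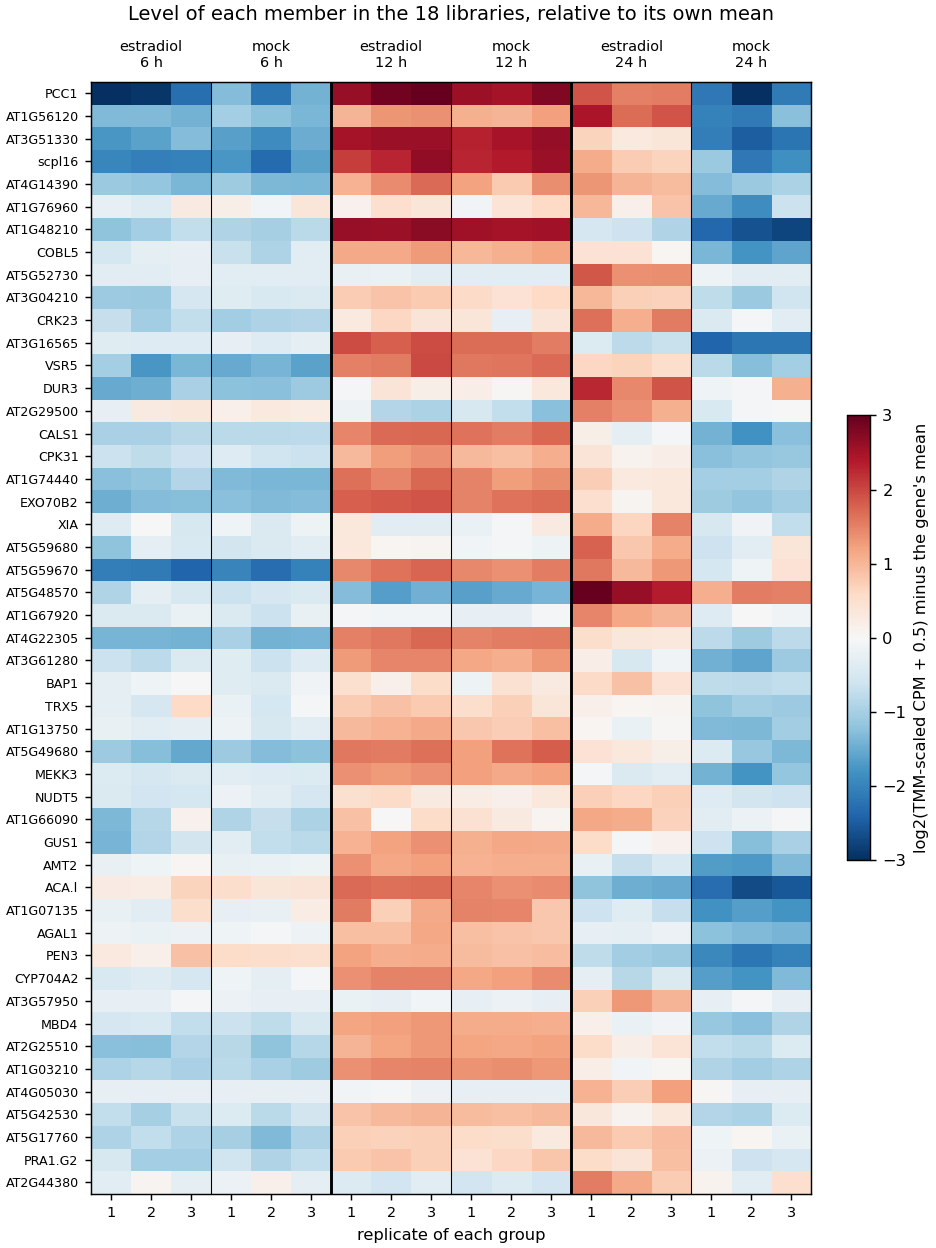
Level of the 49 members (rows, ordered by their 24 h ratio) in the 18 libraries (columns, replicates 1 to 3 of each group), as log2(TMM-scaled CPM + 0.5) minus the gene's mean; colours saturate at −3 and 3. Estradiol and mock columns differ little at 6 and 12 h, PCC1 at 6 h apart, most rows are darkest red at 12 h in both treatments, and the estradiol columns of 24 h are above the mock columns in every row.

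The promoter sequences of 4 members are printed because these members share the 12 h maximum in mock leaves yet do not all hold the same defence or light motif. Each run is the 250 bases before the annotated gene start, 5′ to 3′ on the gene's own strand, from RefSeq's TAIR10.1 assembly. All 4 genes are on the minus strand. Capitals mark the matches, on either strand, to TGACG (the core bound by TGA factors, read as CGTCA on the other strand) in PCC1 at chr3:7846834-7847083, to TTGACC or TTGACT (the W-box bound by WRKY factors) in AT1G56120 at chr1:20993573-20993822 and CPK31 at chr4:2384122-2384371, and to CACGTG (the G-box bound by bZIP and bHLH factors) in scpl16 at chr3:3899020-3899269. None of the 4 windows overlaps another annotated gene.
PCC1: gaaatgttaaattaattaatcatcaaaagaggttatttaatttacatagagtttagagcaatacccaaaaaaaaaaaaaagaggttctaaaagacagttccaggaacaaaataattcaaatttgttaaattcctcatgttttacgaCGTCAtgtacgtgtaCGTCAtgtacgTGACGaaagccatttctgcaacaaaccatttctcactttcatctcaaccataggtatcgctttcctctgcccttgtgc
AT1G56120: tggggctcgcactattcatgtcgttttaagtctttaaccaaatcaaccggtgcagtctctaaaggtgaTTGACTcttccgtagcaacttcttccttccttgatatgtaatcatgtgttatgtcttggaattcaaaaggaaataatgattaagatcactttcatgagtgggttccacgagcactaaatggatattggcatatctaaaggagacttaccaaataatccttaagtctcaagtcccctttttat
CPK31: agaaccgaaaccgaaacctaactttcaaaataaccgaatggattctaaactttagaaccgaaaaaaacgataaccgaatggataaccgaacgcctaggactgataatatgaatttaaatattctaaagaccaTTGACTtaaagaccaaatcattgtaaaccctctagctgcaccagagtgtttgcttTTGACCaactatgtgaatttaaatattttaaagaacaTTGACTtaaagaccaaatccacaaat
scpl16: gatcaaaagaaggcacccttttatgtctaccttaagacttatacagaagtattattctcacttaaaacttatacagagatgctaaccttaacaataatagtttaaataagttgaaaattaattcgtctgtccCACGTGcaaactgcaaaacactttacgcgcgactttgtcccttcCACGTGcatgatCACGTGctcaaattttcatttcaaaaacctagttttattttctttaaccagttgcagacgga

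PCC1 held 3 TGACG matches within a short stretch, CPK31 3 W-boxes, AT1G56120 a single W-box and scpl16 3 G-boxes. Over all 49 members 22 (44.9%) had a W-box in this window, as did 46.5% of the 372 other genes with the same 24 h difference and a sequence (370 of them) and 28.0% of all genes tested. TGACG was found in 14 members (28.6%), in 30.8% of those other genes and in 19.3% of all tested. The evening element AAATATCT was found in 5 members (10.2%), in 6.22% of those other genes and in 5.06% of all tested. In the same order, the related AAAAATCT was found in 4 (8.16%), 4.32% and 6.87%. The G-box was found in 2 (4.08%), 5.68% and 7.39%, and the GCC box GCCGCC in 1 (2.04%), 2.97% and 1.95%. The heat shock element, searched as alternating GAA and TTC units spaced by 2 bases on both strands, matched 0 members. It matched 0.811% of those other genes and 0.417% of all genes tested. None of the 7 motifs contains another, and a match describes letters, not binding.

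PCC1 (AT3G22231) encodes a small membrane-anchored protein named for its control by pathogens and by the circadian clock, and it had the largest 24 h ratio on the CPM + 0.5 scale. At 6 h it stood at 7.35, 9.75 and 15.9 CPM in estradiol leaves and at 31.2, 16.6 and 28.5 CPM in mock leaves. At 12 h it stood at 474, 575 and 668 CPM in estradiol leaves and at 462, 440 and 537 CPM in mock leaves. At 24 h the estradiol libraries gave 289, 223 and 227 CPM and the mock libraries 17.1, 5.41 and 17.4 CPM. The treatments thus did not overlap at 6 h, with estradiol lower, overlapped at 12 h near the maximum, and were far apart at 24 h with estradiol higher. The 6 h difference was not called by edgeR (adjusted p 0.406). The fold was 18.5 at 24 h, and the level kept to 43.1% of that at 12 h in estradiol leaves and to 2.78% in mock leaves.

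Surface receptors and TIR proteins made up 6 members: 4 receptor kinases, which carry signals from outside the cell, and AT3G04210 and AT1G66090, which RefSeq names as disease resistance proteins of the TIR-NBS class. AT1G56120, a leucine-rich repeat receptor kinase, had 78.7, 45.9 and 53.2 CPM in the estradiol libraries of 24 h and 3.04, 2.82 and 5.54 CPM in the mock libraries, a fold of 14.2. Its mean was 33.8 ± 4.23 CPM at 12 h and 59.3 ± 17.2 CPM at 24 h in estradiol leaves (SD, n = 3), and 30.7 ± 2.24 CPM at 12 h and 3.80 ± 1.51 CPM at 24 h in mock leaves. Its estradiol libraries of 24 h lay above all its other libraries. The kinases AT5G59670 and AT5G59680 are neighbouring genes of similar sequence, so reads may be shared between them. AT5G59670 stood at 145, 95.4 and 120 CPM in estradiol leaves and at 33.5, 44.2 and 65.0 CPM in mock leaves at 24 h, and AT5G59680 at 11.2, 5.54 and 6.92 CPM and at 1.75, 2.25 and 3.94 CPM. Both pairs were separate, with mock replicate 3 the highest of the mock libraries for each.

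CRK23, a cysteine-rich receptor kinase from a cluster of similar genes whose reads may also be shared, was barely present at 6 h, with 6 counts over the estradiol libraries and 3 over the mock libraries. At 24 h it stood at 2.73, 1.7 and 2.53 CPM in estradiol leaves and 0.266, 0.497 and 0.321 CPM in mock leaves. Its estradiol libraries were all several times above its mock libraries. The TIR-NBS gene AT3G04210 had 155, 129 and 126 CPM in estradiol leaves against 46.2, 35.8 and 51.6 CPM in mock leaves at 24 h. At 6 h it was the other way round, at 36.6, 36.0 and 54.9 CPM in estradiol leaves and 61.1, 56.7 and 57.4 CPM in mock leaves, again without overlap. That 6 h difference was not called by edgeR (adjusted p 0.514). AT1G66090 averaged 5.64 ± 1.01 CPM in estradiol leaves and 2.19 ± 0.277 CPM in mock leaves at 24 h. Of a list of 51 receptor-like kinases and proteins written for this tissue, 45 were tested and CRK23 was the only member among them, while 26 were among the 372 other genes.

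**Figure D3:**
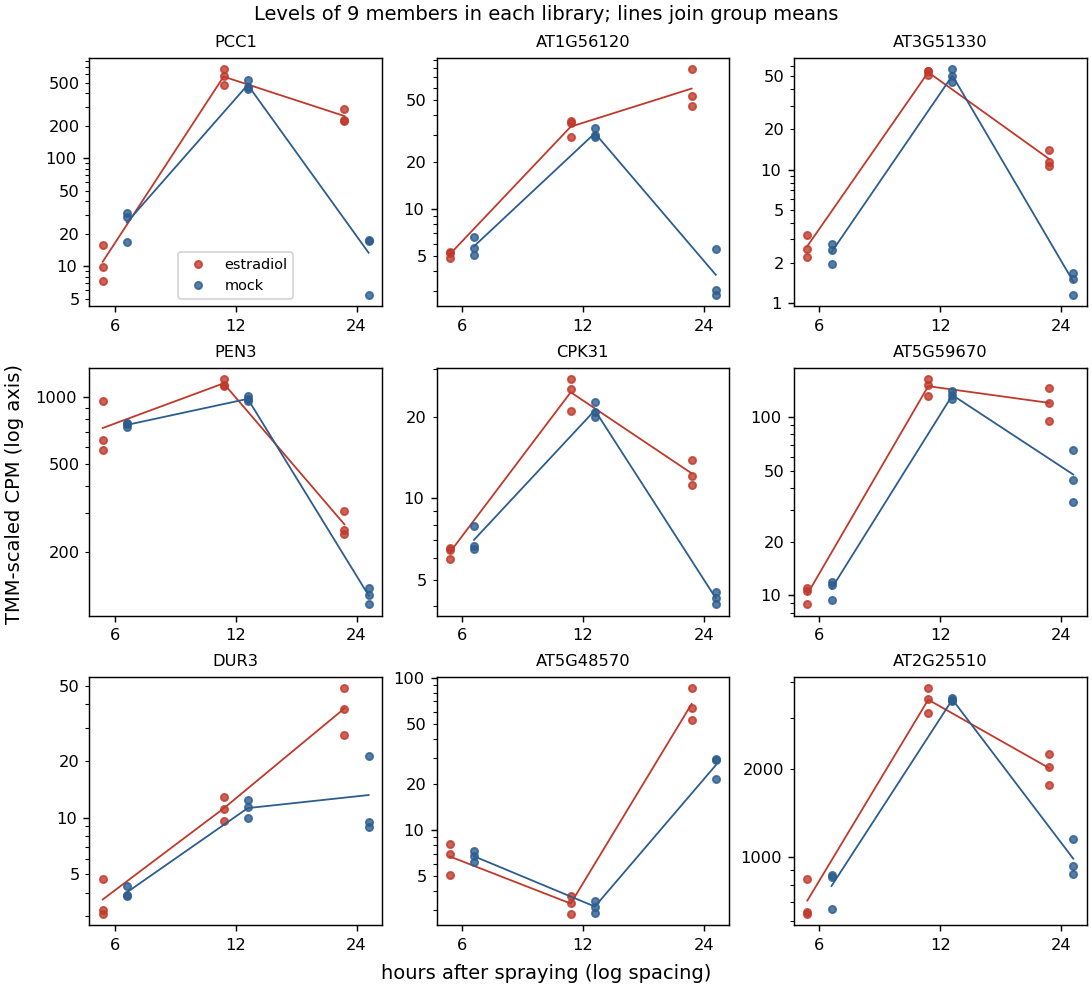
TMM-scaled CPM (vertical axis, log scale) of 9 members in every library at 6, 12 and 24 h after spraying (horizontal axis, log spacing); points are libraries, estradiol (red) set left of mock (blue), and lines join group means. PCC1, AT3G51330, PEN3, CPK31 and AT2G25510 peak at 12 h in both treatments and drop less in estradiol leaves, whereas AT1G56120, DUR3 and AT5G48570 are highest at 24 h in estradiol leaves.

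Kinases and other signalling proteins inside the cell gave 8 members with 24 h folds of 2 to 4.39 on the CPM + 0.5 scale. AT4G14390, an ankyrin repeat protein, had the largest of these on that scale, with 3.49, 2.74 and 2.57 CPM in estradiol leaves and 0.152, 0.235 and 0.321 CPM in mock leaves. The added 0.5 CPM lowers the fold at such low levels, and the edgeR fold was 12.3 for AT4G14390 and 23.6 for BAP1. AT1G48210, a protein kinase, gave 12.5, 11.6 and 9.41 CPM in estradiol leaves and 3.15, 2.54 and 2.25 CPM in mock leaves at 24 h. At 12 h that gene had been far more abundant, at 115 ± 5.19 CPM in estradiol leaves and 106 ± 2.29 CPM in mock leaves, so its 24 h level was 9.74% and 2.50% of the 12 h level. CPK31, a calcium-dependent protein kinase, stood at 13.8, 11.2 and 12.1 CPM in estradiol leaves and 4.06, 4.29 and 4.5 CPM in mock leaves, so the groups were narrow and separate. MEKK3, a kinase at the top of a MAP kinase cascade, averaged 47.7 ± 6.49 CPM in estradiol leaves and 20.7 ± 4.57 CPM in mock leaves. NUDT5, a nudix hydrolase, averaged 6.25 ± 0.252 CPM and 2.43 ± 0.247 CPM, and MBD4, a methyl-CpG-binding domain protein, 8.88 ± 1.12 CPM and 4.00 ± 0.562 CPM, in the same order. BAP1, a C2-domain partner of BON1 that restrains cell death, had 57 counts over the estradiol libraries and 3 over the mock libraries, a ratio of 27.7 (exact 95% interval 9.03 to 139, counting error only). The choice required this 24 h difference, so the interval describes it and does not test it. AT2G44380, of the C1 domain family, stood at 1.69, 1.16 and 0.760 CPM in estradiol leaves and 0.304, 0.105 and 0.562 CPM in mock leaves.

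Secretion, membrane traffic and the cell wall were represented by 6 members. COBL5, a COBRA-like protein, gave 11.1, 11.2 and 8.57 CPM in estradiol leaves and 2.85, 1.99 and 2.37 CPM in mock leaves at 24 h. CALS1, a callose synthase, gave 47.4, 34.5 and 40.1 CPM in estradiol leaves and 15.4, 11.6 and 17.2 CPM in mock leaves. EXO70B2, a subunit of the exocyst that tethers secretory vesicles, gave 23.1, 17.2 and 20.2 CPM in estradiol leaves and 7.44, 6.77 and 7.63 CPM in mock leaves. Each of these 3 genes was lower at 24 h than at 12 h in both treatments, CALS1 for example at 30.8% of its 12 h mean in estradiol leaves and 11.3% in mock leaves. VSR5, a vacuolar sorting receptor, averaged 3.52 ± 0.213 CPM in estradiol leaves and 0.810 ± 0.212 CPM in mock leaves, and PRA1.G2, a prenylated RAB acceptor, 1.31 ± 0.339 CPM and 0.372 ± 0.142 CPM. XIA, a myosin XI motor, differed in shape: its estradiol mean was 0.357 CPM at 12 h and 1.46 ± 0.557 CPM at 24 h, against 0.413 CPM at 12 h and 0.177 ± 0.152 CPM at 24 h in mock leaves.

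Of the 6 transporters and pumps, PEN3, an ABC transporter needed for resistance to penetration by fungi, had the highest CPM. It gave 308, 252 and 241 CPM in estradiol leaves and 138, 116 and 129 CPM in mock leaves at 24 h. It had been far higher at 6 h, at 728 ± 204 CPM in estradiol leaves and 752 ± 16.2 CPM in mock leaves, and at 12 h, at 1158 ± 49.0 CPM and 986 ± 25.8 CPM, so that its 24 h level was its lowest in both treatments. ACA.l, a P-type ATPase, shared that shape, with 58.1 ± 10.8 CPM at 6 h, 143 ± 2.53 CPM at 12 h and 16.5 ± 1.93 CPM at 24 h in estradiol leaves, and 59.4 ± 3.86, 119 ± 4.22 and 7.41 ± 1.11 CPM in mock leaves. DUR3, a urea and proton symporter, was instead highest at 24 h, with 48.5, 27.6 and 37.7 CPM in estradiol leaves and 8.92, 9.47 and 21.1 CPM in mock leaves at 24 h. Its groups were separate, but mock replicate 3 stood well above the other mock libraries. AMT2, an ammonium transporter, averaged 17.5 ± 2.84 CPM in estradiol leaves and 7.83 ± 1.33 CPM in mock leaves.

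Both remaining members of this class are annotated as copper transport proteins and were close to 0 before 24 h. AT5G52730 had 1.81, 1.16 and 1.18 CPM in the estradiol libraries of 24 h, against 0.0759, 0 and 0 CPM in the mock libraries, 92 counts against 2 and a ratio of 67.2 (exact 95% interval 18.1 to 563). At 6 and 12 h its mock libraries held 0 counts, and its estradiol libraries 1 and 4. AT4G05030 had 47 counts against 3 at 24 h, a ratio of 22.9 (7.36 to 115), with 0 counts at 6 h in either treatment and, at 12 h, 7 counts over the estradiol libraries and 0 over the mock libraries. With the mock group put at a floor of 3 counts, that 12 h difference would be 2.19-fold. Its exact 95% lower limit is 1.35, for counting error only, and edgeR did not call it (adjusted p 0.14). The gene meets the 12 h limit only because 0.5 CPM is added to such low levels. For AT5G52730 at 12 h the fold at that floor would be 1.25, with an exact lower limit of 0.621, so no difference is shown. A count of 0 allows up to 3 counts, which is 0.0624 to 0.157 unscaled CPM in these libraries. Together with AT3G57950, a protein of unclear role with 45 counts against 3 (21.9, 7.03 to 110), these are the members whose transcripts were almost undetected until 24 h. The choice required the 24 h differences, so their intervals describe counting error and test nothing.

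Enzymes formed the largest class, with 12 members. AT3G51330, an aspartyl protease, gave 14.0, 10.7 and 11.3 CPM in estradiol leaves and 1.67, 1.15 and 1.53 CPM in mock leaves at 24 h. The serine carboxypeptidase-like gene scpl16 gave 5.26, 4.02 and 3.71 CPM in estradiol leaves and 0.721, 0.105 and 0.241 CPM in mock leaves. Both genes had shared a maximum between the treatments at 12 h, at 53.6 ± 1.93 CPM in estradiol leaves and 50.6 ± 5.66 CPM in mock leaves for AT3G51330 and at 13.1 ± 2.86 CPM and 13.8 ± 1.56 CPM for scpl16. AT3G16565, with a tRNA synthetase additional domain, gave 5.02, 3.71 and 4.05 CPM in estradiol leaves and 0.911, 1.12 and 1.12 CPM in mock leaves, again without overlap. TRX5, the thioredoxin h5 that reduces the salicylic acid receptor NPR1, varied little within a treatment at 24 h, with 24.1, 22.9 and 23.1 CPM in estradiol leaves and 9.15, 10.3 and 10.0 CPM in mock leaves, while its estradiol libraries of 6 h were spread, at 22.1 ± 9.83 CPM (SD, n = 3). The P450 CYP704A2 averaged 6.07 ± 1.26 CPM in estradiol leaves and 2.58 ± 0.531 CPM in mock leaves. The glycosidases GUS1 and AGAL1 averaged 4.00 ± 0.977 CPM and 23.4 ± 0.696 CPM in estradiol leaves, against 1.51 ± 0.473 CPM and 10.7 ± 0.694 CPM in mock leaves. The remaining 5, a purple acid phosphatase (AT1G13750), a hydrolase (AT4G22305), a glucosyltransferase-like protein (AT3G61280), a PhzC/PhzF protein (AT1G03210) and a P-loop NTPase (AT5G17760), had 24 h folds between 2.06 and 2.51 on the CPM + 0.5 scale.

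The 2 chaperones among the members had another time course. AT5G48570 encodes ROF2, a peptidyl-prolyl isomerase of the FKBP type that acts with HSP90 in the heat response. At 24 h it stood at 85.5, 63.7 and 53.2 CPM in estradiol leaves and 21.6, 29.5 and 29.1 CPM in mock leaves. At 12 h it stood at 3.31 ± 0.453 CPM in estradiol leaves and 3.16 ± 0.290 CPM in mock leaves, and at 6 h at 6.74 ± 1.51 CPM and 6.77 ± 0.537 CPM. It was thus lowest at 12 h and highest at 24 h in both treatments, 2036% of its 12 h mean in estradiol leaves and 845% in mock leaves. AT2G29500, a small HSP20-like chaperone, gave 10.8, 9.74 and 7.72 CPM in estradiol leaves and 2.39, 3.35 and 3.41 CPM in mock leaves at 24 h. Its 12 h means were again its lowest, at 2.07 ± 0.843 CPM in estradiol leaves and 1.78 ± 0.579 CPM in mock leaves. Of a heat shock list of 24 genes, 15 were tested. Among them AT5G48570 was the only member, and 8 of the 15 were higher in estradiol leaves at 24 h by edgeR (adjusted p below 0.05), against 8.43% of all genes tested.

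Small or uncharacterized proteins made up the other 9 members, PCC1 included. AT2G25510 and AT5G42530 had the highest CPM of all 49, a scale that is not corrected for transcript length. AT2G25510 gave 2254, 1769 and 2034 CPM in estradiol leaves and 926, 873 and 1153 CPM in mock leaves at 24 h. AT5G42530 gave 1595, 1374 and 1588 CPM in estradiol leaves and 687, 653 and 955 CPM in mock leaves. At 12 h the treatments had the same level, 3472 ± 345 CPM in estradiol leaves and 3476 ± 40.3 CPM in mock leaves for AT2G25510 and 2444 ± 150.0 CPM and 2440 ± 46.7 CPM for AT5G42530. AT1G76960 gave 54.6, 30.0 and 49.1 CPM in estradiol leaves and 9.19, 7.06 and 17.3 CPM in mock leaves at 24 h. It varied little between 6 and 12 h, and the treatments parted at 24 h, at 129% of the 12 h mean in estradiol leaves and 32.7% in mock leaves. AT1G67920, AT1G74440, AT1G07135 and AT5G49680, a SABRE-like protein, had folds between 2.23 and 2.78 on the CPM + 0.5 scale. Their edgeR folds, without that addition, were 3.58, 3.1, 4.58 and 2.58 in the same order.

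The comparison of 12 h with 6 h inside each treatment was not part of the choice, which set treatments against each other within a time. The libraries of 6 and 12 h are, however, the same ones whose ratios the choice limits. In mock leaves 39 of 49 members (79.6%) rose and 3 (6.12%) fell (edgeR quasi-likelihood test, Benjamini-Hochberg adjusted p below 0.05), where 33.7% of all genes tested rose and 30.6% fell. Of the 372 other genes with the same 24 h difference 65.1% rose and 5.65% fell. The median log2 fold change was 1.56 over the members, 1.23 over those other genes and 0.03 over all genes. It was 1.59 without AT4G05030 and AT5G52730, which had no counts in mock leaves at either time. The gene lists moved in both directions in mock leaves. Of the clock and time-of-day list 6 of 26 genes rose and 18 fell, and of the photosynthesis list 2 of 25 rose and 21 fell. Of the DNA replication and cell cycle list 18 of 32 rose and 3 fell, and of the ethylene and ERF list 12 of 17 rose and 1 fell. Of the receptor-like kinases and proteins 23 of 45 rose and 8 fell. No member is in the clock or the photosynthesis list.

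In estradiol leaves 40 members (81.6%) rose and 2 (4.08%) fell between 6 and 12 h, where 34.7% of all genes tested rose and 32.9% fell. Of the 372 other genes 86.3% rose and 1.61% fell. The medians were 1.80 for the members (1.74 with AT4G05030 at the limit that a count of 0 allows), 1.99 for the other genes and 0.02 for all genes. In estradiol leaves the other genes thus had the higher share and median, and in mock leaves the members. The choice fixes this contrast in part. It limits the ratio of estradiol over mock at 6 and 12 h for the members, and each of the other genes passed that limit. The contrast is therefore a description, and no test of these differences was made.

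**Figure D4:**
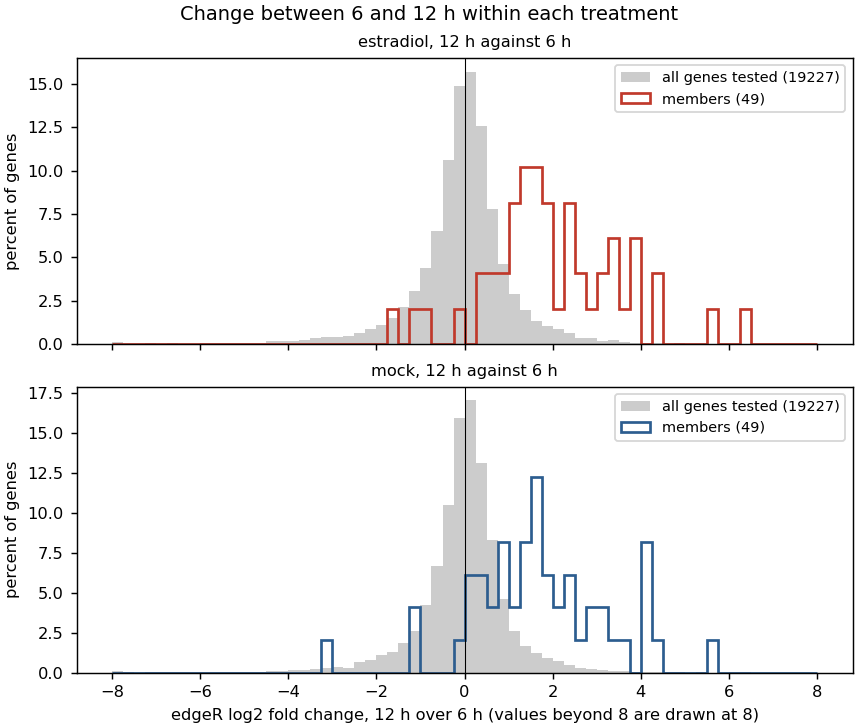
Distribution of the edgeR log2 fold change of 12 h over 6 h (horizontal axis) in estradiol (upper) and mock leaves (lower) for all 19227 genes tested (grey) and the 49 members (outline), as percent of genes (vertical axis). The members' distribution is shifted to the right in both treatments, with medians of 1.80 and 1.56 where all genes centre at 0.02 and 0.03.

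The largest rise in mock leaves was that of scpl16, at 12.5, 13.4 and 15.5 CPM at 12 h against 0.299, 0.0419 and 0.371 CPM at 6 h. Its log2 fold change was 5.73 (SE 0.35, adjusted p 6.56e-11), and 6.32 (SE 0.39) in estradiol leaves. AT3G51330 followed, at 45.0, 50.5 and 56.4 CPM at 12 h against 2.49, 1.97 and 2.77 CPM at 6 h, 4.37 (SE 0.14, adjusted p 5e-15) in mock and 4.31 (SE 0.14) in estradiol leaves. On the same scale PCC1 rose by 4.23 (SE 0.33, adjusted p 2.11e-09) in mock leaves and by 5.69 (SE 0.36, adjusted p 1.03e-10) in estradiol leaves. In each of these 3 genes every 12 h library lay above every 6 h library of its treatment. CRK23 had 74 counts at 12 h against 3 at 6 h in mock leaves, a ratio of 27.7 (exact 95% interval 9.12 to 137). All 12 enzymes rose in both treatments, from AT3G51330 and scpl16 down to TRX5 at 0.79 (SE 0.19) in mock and 0.80 (SE 0.19) in estradiol leaves. Of the secretion and wall genes CALS1 rose by 2.45 (SE 0.12) and EXO70B2 by 2.98 (SE 0.09) in mock leaves, and XIA did not pass the test (0.60, SE 0.55, adjusted p 0.359).

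The 3 falls in mock leaves were those of both chaperones and of AT2G44380. AT5G48570 fell by 1.09 on the log2 scale (SE 0.21, adjusted p 0.000147) in mock leaves and by 1.03 (SE 0.21, adjusted p 0.000238) in estradiol leaves. AT2G29500 fell by 1.23 (SE 0.27, adjusted p 0.000549) and by 0.88 (SE 0.26, adjusted p 0.00635). AT2G44380 had 2 counts at 12 h against 17 at 6 h in mock leaves, a ratio of 0.132 (exact 95% interval 0.0148 to 0.557, edgeR adjusted p 0.019). That call was lost without mock replicate 1 or 3 of 12 h or mock replicate 2 of 6 h (adjusted p 0.0571, 0.0772 and 0.0764), and in estradiol leaves the gene did not pass (adjusted p 0.129). The members that did not pass in mock leaves were XIA, AT1G67920, AT1G76960, AT3G57950, AT4G05030, AT5G52730 and AT5G59680. In AT1G76960, for example, the log2 fold change was 0.17 (SE 0.26, adjusted p 0.587).

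**Figure D5:**
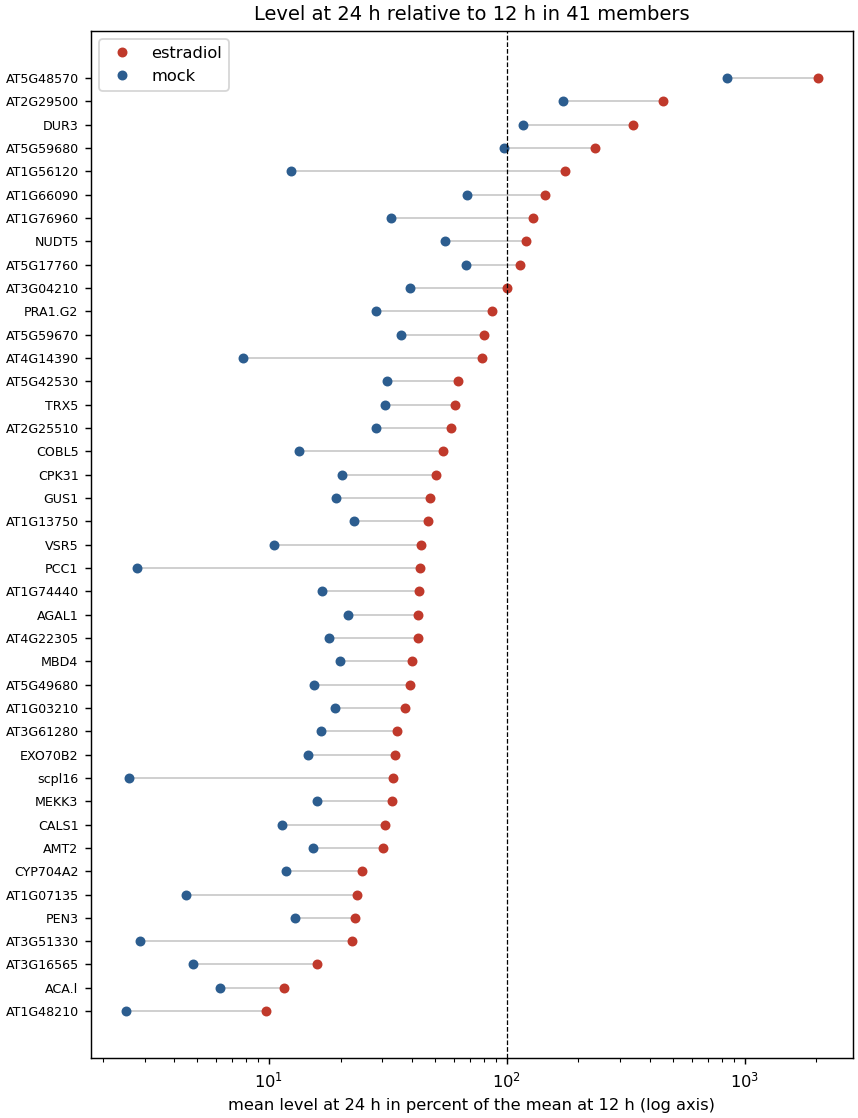
Mean level at 24 h in percent of the mean at 12 h (horizontal axis, log scale; dashed line at 100) for the 41 members with a mock mean above 1 CPM at 12 h, in estradiol (red) and mock leaves (blue). The estradiol point lies right of the mock point in every row, with medians of 43.4% and 17.9%, and AT5G48570, AT2G29500 and DUR3 are above 100% in both treatments.

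At 12 h estradiol and mock leaves were close for most members, as the choice requires, and the counts that follow are descriptions from which nothing is read. On unscaled CPM, the scale of the choice, 17 members (34.7%) were higher in estradiol leaves at 12 h without overlap of libraries and 0 lower, where 18% of all genes tested were higher and 14% lower. On TMM-scaled CPM 14 members were higher and 0 lower, against 14.6% and 16.9% of all genes tested. EXO70B2 stood at 57.5, 59.5 and 60.7 CPM in estradiol leaves and 46.0, 50.6 and 52.8 CPM in mock leaves at 12 h, and AT3G16565 at 27.7, 24.9 and 27.7 CPM and 22.7, 22.9 and 20.7 CPM. Both were thus higher in each estradiol library at 12 h already, by less than the limit. They were the 2 members (4.08%) that edgeR called higher at 12 h (adjusted p 0.0424 and 0.0297 in the same order), where 4.64% of all genes tested were called higher. At 6 h 1 member was higher without overlap on unscaled CPM and 6 were lower, against 6.79% and 6.85% of all genes tested. On TMM-scaled CPM 1 was higher and 5 lower, against 6.88% and 7% of all genes tested. At 24 h all 49 members were called higher by edgeR, where 8.43% of all genes tested were called higher and 6.54% lower. None of the 49 overlapped at 24 h on either scale, which the choice itself fixes, where 19% of all genes were higher and 7.23% lower without overlap on unscaled CPM, and 13.3% and 14.9% on TMM-scaled CPM.

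The 24 h libraries were not equal in their contribution. Estradiol replicate 1 was the highest of the 3 for 39 members and for 42.2% of all genes tested, and replicate 2 was the lowest for 31 members and for 40.2%. Replicate 1 also had the highest PAD4 level (364 CPM). PAD4 was lowest in replicate 3 (148 CPM), which was the lowest for 17 members, and stood at 244 CPM in replicate 2. The part of the PAD4 level in the result was not tested. Without replicate 1 the median log2 ratio at 24 h was 1.25 against 1.33 with all libraries, and 47 of the 49 members remained at 1 or above. Among the mock libraries replicate 3 was the highest for 25 members and replicate 2, the deepest library at 48.1 M counts, the lowest for 29. Without mock replicate 2 the median ratio was 1.28, and 46 members remained at 1 or above.

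Of 25 gene lists for leaf defence, hormones, nutrition, metabolism, stress and time of day, with 609 loci, 2 loci (0.328%) are members, CRK23 and AT5G48570, where the members are 0.15% of all genes counted. The salicylic acid response list had 20 of 25 tested genes higher in estradiol leaves at 24 h by edgeR, where 8.43% of all genes tested were higher. Of these 20 genes 19 are among the 372 other genes and 0 among the members. The endoplasmic reticulum chaperone list had 14 of 22 higher, with 12 among the other genes and 0 among the members. Of the NLR receptor and EDS1 family list 11 of 16 were higher, with 5 among the other genes, and of the detoxification list 13 of 33, with 12. None of those genes stayed below 0.3 at 6 and 12 h while meeting both conditions at 24 h. Not all lists had higher genes. Of the ABA and water deficit list 0 of 27 were higher and 8 lower, and of the photosynthesis list 0 of 25 were higher and 4 lower. The lists were written with earlier results of these data known.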

How the data were processed

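The authors deposited a table of raw counts, whole numbers per gene and library without normalization. FastQC 0.11.2, TopHat2 2.0.10, HTSeq and the TAIR10 genome are named in the submitters' processing notes. Annotation release, counting mode and strand setting were not given in the sources, so reads of overlapping or antisense genes may be mixed. The 5 classes of reads assigned to no gene (5.76 to 6.71% of the table) were left out. Groups and replicate numbers came from the sample titles, and replicates of a group all differed by more than counting noise (chi-square over degrees of freedom 2.96 to 33.9).

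The members and gene lists were chosen with earlier results of these data known. Ratios that define the members use unscaled CPM computed here from the deposited counts, with 0.5 CPM added, and levels use TMM-scaled CPM. Tests were edgeR's quasi-likelihood test (edgeR 4.0.16, R 4.3.3), with 1 coefficient per group over 18 libraries, filterByExpr (minimum count 10, minimum total 15) and Benjamini-Hochberg adjustment over 19227 genes, called below 0.05. The code was tested on simulated data. The SE was derived from the log2 fold change and its F statistic. Members with 3 or fewer counts in a group are given as ratios of summed counts with an exact 95% interval. It covers counting error only, not the spread between libraries, and at 24 h it describes a difference that the choice required. No correction was made for transcript length, so CPM are compared mainly within a gene.

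Members given in each 24 h library were the 12 with the largest 24 h ratio among those averaging at least 1 CPM in estradiol leaves, the 8 with the highest CPM, those in a gene list, those nearest the limits and the largest changes between 6 and 12 h in mock leaves. Others were named by role after their values were seen, and the role classes were drawn from RefSeq product names. All 49 members matched a RefSeq locus (assembly TAIR10.1), 22 with a symbol, and the others are given by locus. Promoter windows come from TAIR10.1 by gene, not from the files' coordinates, and 27437 were searched. Alternatives were DESeq2 (1.42.0) and its size factors, upper-quartile scaling, limma-voom (limma 3.58.1), other filters, 0.1 or 1 CPM added, other limits, the libraries of the contrast alone, the replicate number as a block and each library left out in turn.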

Additional observations from a re-analysis of the deposited data

Results flagged for a closer look

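In 5 members every estradiol library lay below every mock library at 6 h and above every mock library at 24 h, on unscaled and on TMM-scaled CPM alike, so that the treatment difference had opposite signs at these times. The difference between the times was not tested, and the 24 h separation was a condition of membership. At 6 h 6 members lay below without overlap on unscaled CPM and 5 on TMM-scaled CPM, as did 6.85% and 7% of all genes tested. The log2 ratio of estradiol over mock at 6 h was −1.18 for PCC1, −0.46 for AT3G04210, −0.29 for CYP704A2, −0.13 for CALS1 and −0.08 for MEKK3. The ratios at 24 h were 4.21, 1.67, 1.13, 1.49 and 1.25 in the same order. At 6 h edgeR called none of these 5 members (adjusted p 0.406, 0.514, 0.606, 0.856 and 0.909 in the same order). It called 0 of the 49 members and 2 of 19227 genes lower at 6 h, so a lower level in estradiol leaves at that time is not shown. For CALS1 and MEKK3 the 6 h separation was narrow, at 21.9 ± 1.36 CPM in estradiol leaves and 23.9 ± 0.3 CPM in mock leaves for CALS1 and at 41.5 ± 1.37 CPM and 44.0 ± 1.48 CPM for MEKK3 (SD, n = 3).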

How the results depend on the processing

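Membership rests on limits that many genes stand close to. With a limit of 0.1 in place of 0.3 at 6 and 12 h 10 genes met the conditions, and with 0.5 120 did. TMM scaling gave 52 members (47 of the 49 among them), DESeq2 size factors 53 (47), 0.1 CPM added 66 (39), 1 CPM added 44 (40), and leaving out each library in turn 45 to 61. The 24 h ratio of 10 low members moved by over 1.5 times with 0.1 CPM added, that of scpl16 for example to 3.29 (log2), and that of AT5G52730 to 1.11 with 1 CPM. In all 18 omissions 24 members met the conditions, TRX5 in 12 and AT1G66090 in 13; AT1G76960, AT2G25510, AT5G48570, AT5G49680, CALS1, DUR3 and scpl16 met them under all 25 settings.

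Between 12 and 6 h 40 of the 42 members called in mock leaves kept call and direction in all 15 fits, without AT2G44380 and BAP1, as did 40 of 42 in estradiol leaves, without AT5G59680 and BAP1. Leaving out libraries gave 41 to 42 members and 11566 to 11687 genes (12361 with all libraries) in mock leaves, and 40 to 43 members and 12173 to 12547 genes (13002) in estradiol leaves. The AT2G44380 fall in mock leaves lost its call at −2.68, −2.50 and −2.64 (log2) in the omissions given above. At 24 h 2877 genes were called, 1686 with only the libraries of the contrast (72.8% of them higher, against 56.3%), and 1715 to 2905 when a library was left out, the lowest without mock replicate 2 (67.9% higher). Members called at 24 h numbered 48 to 49 in those omissions, 48 with limma-voom, and 43 of 43 tested with a filter of 1 CPM in 3 libraries. The choice required a difference in this contrast, so these counts of members are descriptions and lend it no support.

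Replicate numbers did not pair the samples: same-numbered libraries had correlations of deviations from −0.25 to 0.22, and 0 of 9 matched their own number best. With the replicate block 12223 genes and 42 members were called in mock leaves (12 against 6 h), 12871 and 42 in estradiol leaves, and 2628 and 49 at 24 h. Depth limits the members below 1 CPM, where a floor of 3 counts is up to 0.157 CPM.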
